A study of Mus musculus with 18 samples.

Results

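The genes described are 10 regulators of the neuronal microtubule cytoskeleton: the stathmins Stmn1, Stmn2, Stmn3 and Stmn4, the structural microtubule-associated proteins Mapt, Map1b and Map2, the doublecortin gene Dcx, and the collapsin response mediators Dpysl2 and Dpysl3. They were taken as a list of symbols, matched through the Ensembl identifiers of the counts to GENCODE vM21, and all 10 were found among the 47643 genes counted and passed the filter on low values. They were followed in 18 RNA sequencing libraries of eDRG spot cultures, which are embryonic dorsal root ganglia of CD-1 mice dissected at e13.5, plated as a spot so that axons grow outward, and kept with the mitotic inhibitor FDU. The control cultures were not cut and were collected at DIV7. The other cultures were cut with a blade, which severs the axons from their cell bodies, and were collected 1, 3, 8, 16 or 24 hours later (HPI), with 3 libraries in each of the 6 groups. Strain, stage and FDU were shared by all groups. The labels give DIV7 for every library, although the paper places the cut at DIV7 and collection up to 24 hours later. With 1 uncut group, effects of the cut and of added hours in culture cannot be told apart. The labels do not say whether libraries of a group came from separate litters or cultures. The p-values rest on the spread left between libraries after offsets of the replicate numbers were fitted, and that spread may be technical.

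Microtubules grow and shrink at their ends, and the balance of both is regulated in the growth cone, the motile tip of a growing or regenerating axon. Stathmins bind free tubulin dimers and promote disassembly, and phosphorylation turns this activity off. Tau (Mapt), MAP1B and MAP2 bind along the microtubule wall and stabilize or space it, MAP1B being prominent in growing axons and MAP2 in dendrites. Doublecortin binds between protofilaments, and the CRMPs encoded by Dpysl2 and Dpysl3 bind tubulin dimers and act downstream of semaphorin signals. A cut axon has to rebuild a growth cone, and several of these genes are commonly read as markers of that growth state.

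The members differed little from control at any time. Of the 50 comparisons of a member with control, 8 passed an adjusted p of 0.05 by edgeR's quasi-likelihood fit. P-values were adjusted by Benjamini-Hochberg over the 13771 genes tested. From the earliest time to the latest, the members passing numbered 0, 0, 2, 4 and 2 of 10. The shares of all genes passing were, in the same order, 0.276%, 0.189%, 7.68%, 22.2% and 15.0%. No member changed over 2-fold, against 0.0290% of all genes at both 1 and 3 HPI, 0.537% at 8 HPI, 1.49% by 16 HPI and 0.821% by 24 HPI. Without the replicate number as a term in the fit, Map1b at 16 and 24 HPI was the only member still called. Of all genes, that fit called 2.95% higher and 2.18% lower at 16 HPI, and 0.436% and 0.675% at 24 HPI. Stmn4 rose at 8 and 16 HPI. Map1b fell at 8, 16 and 24 HPI, Mapt fell at 16 and 24 HPI, and Dcx fell at 16 HPI. Stmn1, Stmn2, Stmn3, Map2, Dpysl2 and Dpysl3 did not pass against control at any time. The log2 fold changes against control lay between -0.52 and 0.51, and no bound of their 95% intervals was farther from 0 than 0.72.

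**Figure D1:**
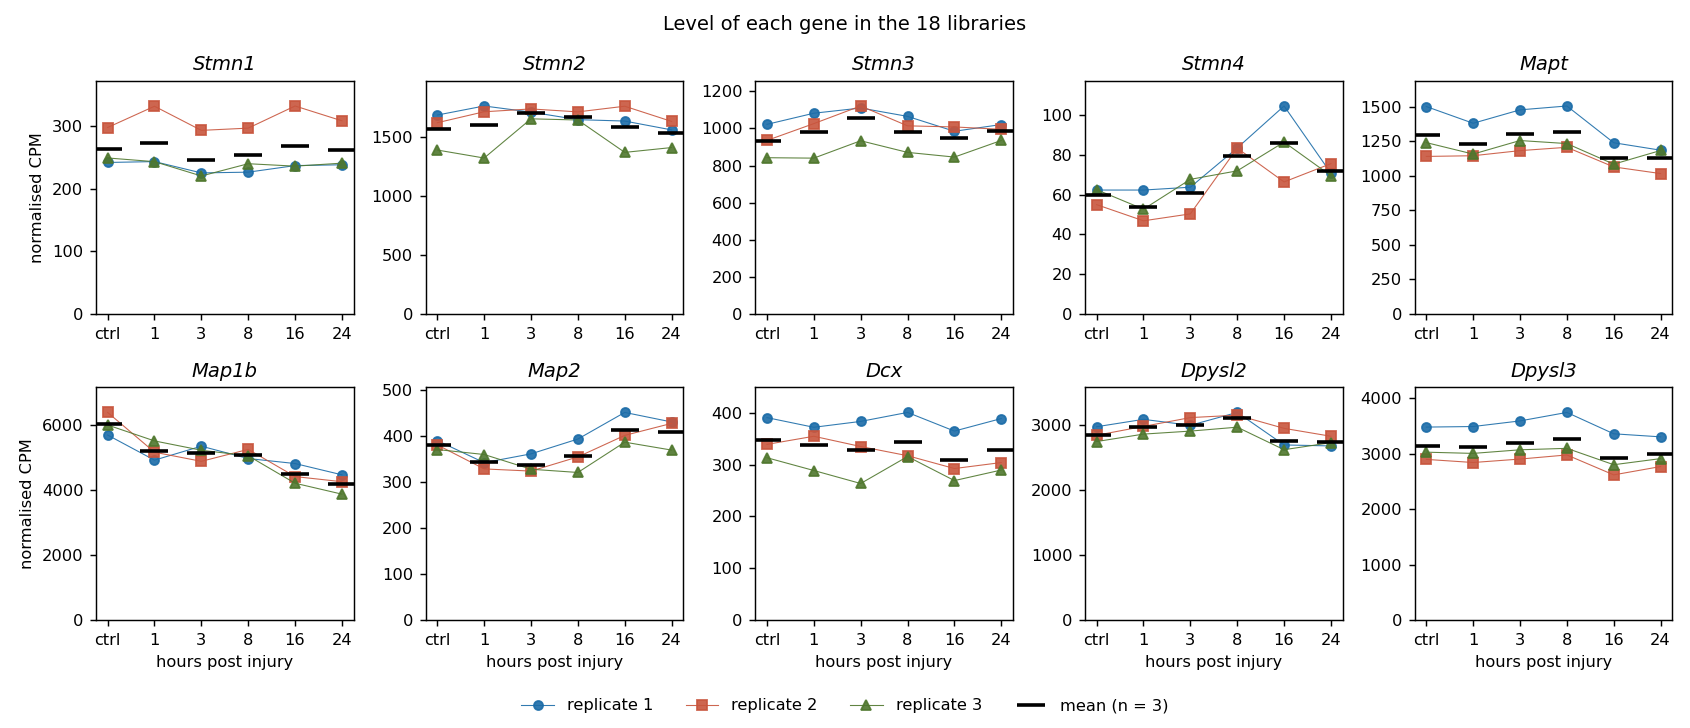
Normalised CPM (y axis, from 0) of the 10 genes in the 18 libraries at control and at 1, 3, 8, 16 and 24 hours post injury, with time points evenly spaced. Symbols and thin lines join libraries of 1 replicate number and black bars are means of 3 libraries. The Map1b libraries fall from between 5704 and 6400 in control to between 3885 and 4480 at 24 HPI, Stmn4 peaks at 16 HPI, and Stmn1 is higher in replicate 2 in each group.

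Depth was 9478891 to 23082327 counts on genes, and each member had at least 745 counts in every library. The share of counts on residual ribosomal and mitochondrial genes was between 16.1% and 27.3%, highest in 16 HPI replicate 1. The 8 sensory neuron markers examined were detected in every library, and their summed level was 11621 to 12570 CPM in control, 10368 to 11406 CPM at 16 HPI and 11127 to 11720 CPM at 24 HPI, with Tubb3, the neuronal tubulin, lower at both of these times. Among markers of satellite glia and Schwann cells, S100b was 51.63 to 134.9 CPM over the 18 libraries, while Sox10 and Cdh19 were at most 2.244 and 2.015 CPM and at 0 in at least 1 library. The 6 fibroblast markers summed to at most 19.65 CPM in any library, the 5 myeloid markers to at most 6.930 CPM and the 4 endothelial markers to at most 1.419 CPM. S100b was lower and Dcn and Cd68 were higher than control at 16 and 24 HPI, although the median log2 fold change of the 4 tested markers on the S100b list was above 0, at 0.25 and 0.76. Nes, a progenitor marker, and Top2a, a marker of dividing cells, were low throughout, at 0.5171 to 4.945 and 0.3929 to 2.454 CPM over the 18 libraries. Both passed as higher at 24 HPI (1.86 on the log2 scale for Nes). Among the sensory neuron markers, Isl1 and Pou4f1 were higher at that time. The part of these values in the results below was not tested. In bulk RNA, fewer cells of a type and less RNA per cell cannot be told apart.

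To see how abundant the members were relative to one another, levels were taken per kilobase of exon (RPKM) in the control cultures. Stmn3 had the highest level of the 10, 821.3 ± 79.0 RPKM (SD, n = 3), and only 23 of 13728 tested genes with a length were above it. Dpysl2 followed with 629.8 ± 25.2 RPKM, Dpysl3 with 474.8 ± 46.2 RPKM, Map1b with 381.1 ± 22.0 RPKM and Stmn2, which encodes the growth cone stathmin SCG10, with 279.9 ± 27.8 RPKM. Neighbours among these 5 did not overlap between libraries on this scale. Mapt at 171.8 ± 24.8 RPKM and Stmn1 at 137.0 ± 15.8 RPKM overlapped each other. The lowest 3 were Stmn4 at 31.3 ± 2.24 RPKM, Dcx at 27.5 ± 3.11 RPKM, which overlapped Stmn4, and Map2 at 23.2 ± 0.590 RPKM. The range from Stmn3 to Map2 was 35.5-fold, and even Map2 stood in the upper 13.3% of tested genes.

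**Figure D2:**
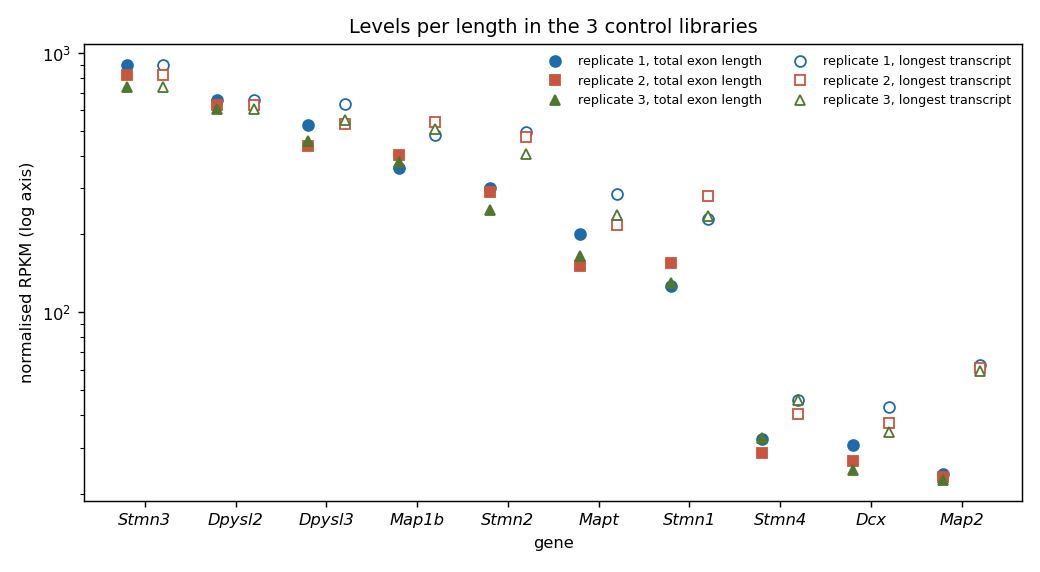
Levels per length of the 10 genes in the 3 control libraries, as RPKM on a log axis, with 1 point for each library. Filled symbols use the total exon length of the gene and open symbols its longest transcript. Stmn3 is highest with either length, and Map2 moves from 23.2 to 60.9 RPKM when only its longest transcript is used.

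The order depended on the length used. Map2, for example, has 24 annotated transcripts and 16449 exonic bases, of which its longest transcript holds 6258. With the longest transcript as the length 5 of the 10 genes kept their place. Stmn1 (248.3 RPKM) then stood above Mapt (246.3 RPKM) with overlapping libraries, and Map2 (60.9 RPKM) stood above Stmn4 (44.1 RPKM) and Dcx (38.3 RPKM). Dpysl2, Dpysl3 (572.6 RPKM), Map1b (511.4 RPKM) and Stmn2 (459.5 RPKM) then overlapped each with the next between control libraries. In the injured groups, Stmn3, Dpysl2 and Dpysl3 kept the first 3 places per exon length at every time. Stmn2 and Map1b, whose libraries did not overlap in control, overlapped at 1, 3, 16 and 24 HPI, and the Stmn2 mean was the higher of the pair at 16 HPI (284.1 against 283.4 RPKM) and 24 HPI (274.3 against 265.7 RPKM). The time of that switch depended on the length, since by longest transcript the Stmn2 mean was already the higher at 1 HPI (469.4 against 441.3 RPKM), with overlapping libraries, and at 3 HPI (499.2 against 437.3 RPKM), with none. The 10 genes together took 1.664% to 1.682% of the counts in the control libraries, 1.450% to 1.547% at 16 HPI and 1.440% to 1.512% at 24 HPI.

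Among the stathmins, Stmn4, a neuron-specific family member also called RB3 (ENSMUSG00000022044.14, chromosome 14 of GRCm38, 66344296 to 66361680), was the one that passed the test. Its level was 62.4, 55.0 and 62.6 CPM in control replicates 1 to 3. It was 62.4, 46.9 and 52.7 CPM at 1 HPI and 63.8, 50.4 and 67.8 CPM at 3 HPI, within or overlapping the control range. At 8 HPI it was 83.6, 83.5 and 72.0 CPM, above every control library. At 16 HPI it was 104.7, 66.5 and 86.5 CPM, again above every control library but spread widely, and at 24 HPI it was 70.9, 75.7 and 69.6 CPM. The log2 fold change against control was 0.40 (SE 0.11, adjusted p = 0.022) at 8 HPI and 0.51 (SE 0.10, adjusted p = 0.00114) at 16 HPI, an increase of 41.9%. At 24 HPI it was 0.27 (SE 0.10) with an adjusted p of 0.0798, although all 3 libraries were above control. The step from 3 to 8 HPI, with non-overlapping libraries, had a log2 fold change of 0.39 (SE 0.10, adjusted p = 0.0498). That call was kept in 12 of 27 alternatives, over which the value ran from 0.28 to 0.49. The 8 HPI call was lost when any 1 control library was left out (log2 fold change 0.36 without replicate 1, 0.40 without 2 and 0.44 without 3), as well as 8 HPI replicate 1 (0.43) or 2 (0.29), whereas the 16 HPI call was kept without any 1 library. Stmn4 passed at 24 HPI without 24 HPI replicate 1 (0.36) or 16 HPI replicate 2 (0.27), and with upper-quartile scaling (0.30) or the compared groups alone (0.26, adjusted p = 0.00211).

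The 3 more abundant stathmins stayed close to control. Stmn2 (ENSMUSG00000027500.10, chromosome 3, 8509360 to 8561606) was 1689, 1624 and 1392 CPM in control, 1638, 1764 and 1372 CPM at 16 HPI and 1563, 1635 and 1413 CPM at 24 HPI. Its 5 log2 fold changes against control ran from -0.03 to 0.13, and the 95% interval at 24 HPI reached from -0.16 to 0.11. Stmn3, a palmitoylated Golgi- and membrane-bound stathmin also called SCLIP (ENSMUSG00000027581.12, chromosome 2, 181306459 to 181314500), was 1022, 935.3 and 842.2 CPM in control. Stmn3 had its highest mean at 3 HPI, where it was 1110, 1121 and 933.6 CPM, 0.18 above control on the log2 scale (SE 0.05), with an adjusted p of 0.124 by edgeR and 0.0303 by DESeq2. Stmn1, the ubiquitous stathmin (ENSMUSG00000028832.11, chromosome 4, 134468320 to 134473843), was between 220.6 and 332.5 CPM in the 18 libraries, and its replicate 2 library (293.5 to 332.5 CPM) was above both others (220.6 to 249.4 CPM) in each of the 6 groups. Its interval at 24 HPI was -0.11 to 0.09. In the test for a difference among any of the 6 groups, the adjusted p was 0.149 for Stmn1, 0.296 for Stmn2 and 0.101 for Stmn3, against 0.0002 for Stmn4. Stmn1 shares 99.8% of 450 bases with the processed pseudogene Gm11223, which had 95 to 329 counts, while Stmn1 had at least 2798.

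**Figure D3:**
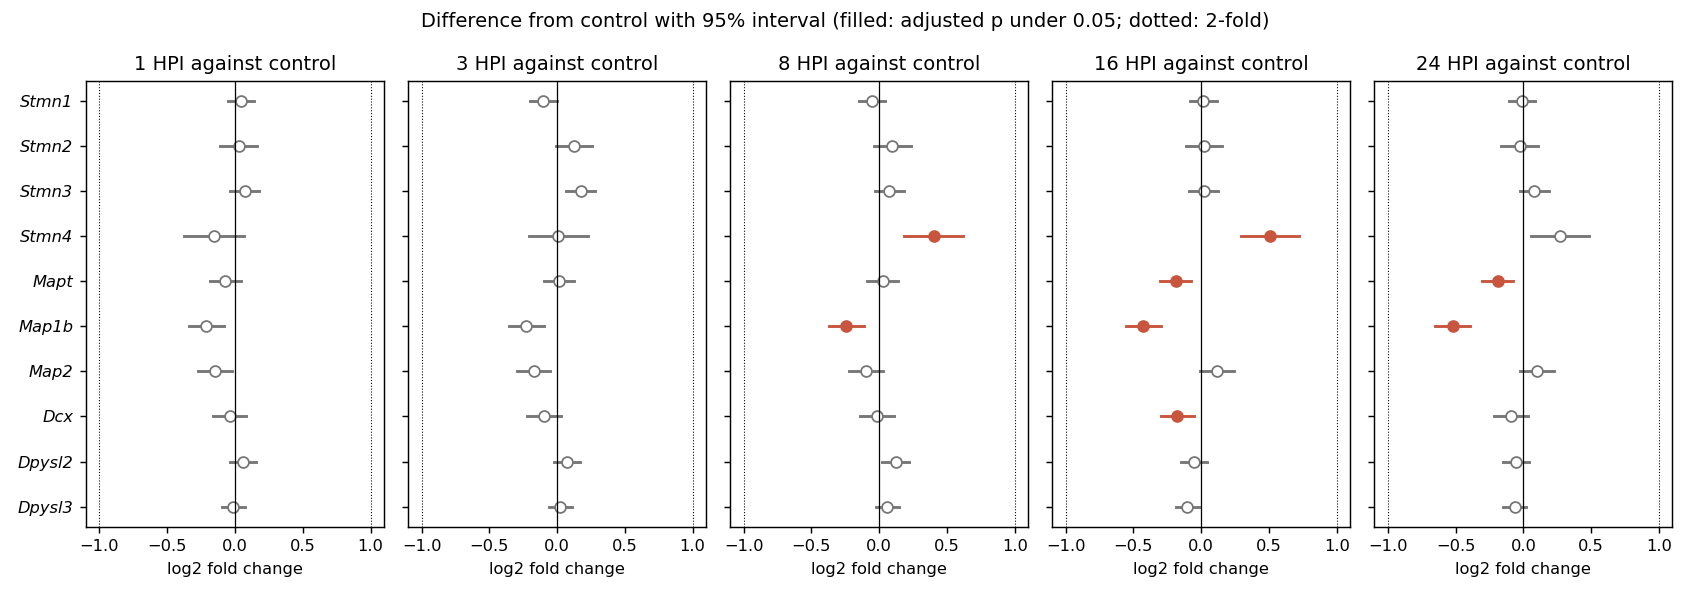
Log2 fold change against control (x axis) of the 10 genes at 1, 3, 8, 16 and 24 HPI, with 95% intervals from edgeR's quasi-likelihood fit of 18 libraries. Filled symbols passed an adjusted p of 0.05 and dotted lines mark a 2-fold change, which no interval reached. Stmn4 rises to 0.51 at 16 HPI and Map1b falls to -0.52 at 24 HPI.

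Map1b, the most abundant member by read count and the axonal microtubule-associated protein of early development (ENSMUSG00000052727.5, chromosome 13, 99421446 to 99516540), fell furthest. Its level was 5704, 6400 and 6013 CPM in the control libraries. It was 4932, 5176 and 5523 CPM at 1 HPI and 5361, 4895 and 5236 CPM at 3 HPI, so every injured library was already below every control library. It was 4981, 5263 and 5066 CPM at 8 HPI, 4827, 4426 and 4221 CPM at 16 HPI and 4480, 4268 and 3885 CPM at 24 HPI, which had the lowest mean. The log2 fold change was -0.21 (SE 0.06, adjusted p = 0.156) at 1 HPI and -0.23 (adjusted p = 0.107) at 3 HPI, neither past the threshold by edgeR. By DESeq2 both passed, with an adjusted p of 0.0471 at 1 HPI and 0.0355 at 3 HPI. At 8 HPI it was -0.24 (SE 0.06, adjusted p = 0.0194). It reached -0.43 at 16 HPI (SE 0.06, adjusted p = 3.93e-05) and -0.52 at 24 HPI (SE 0.06, adjusted p = 1.44e-05). By 24 HPI Map1b had decreased by 30.3%, with a 95% interval of -36.3% to -23.8%. The calls at 16 and 24 HPI were kept in 27 of 27 alternatives, including a correction for GC content and length, where the log2 fold change was -0.35 at 16 HPI and -0.38 at 24 HPI. Leaving out replicate 2 (-0.20) or 3 (-0.24) of the control, or replicate 1 (-0.22) or 3 (-0.25) of 8 HPI, ended the 8 HPI call.

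Mapt, which encodes tau (ENSMUSG00000018411.17, chromosome 11, 104231390 to 104332090), was 1501, 1140 and 1240 CPM in control and 1505, 1206 and 1233 CPM at 8 HPI. It was 1239, 1064 and 1084 CPM at 16 HPI and 1185, 1016 and 1183 CPM at 24 HPI. These ranges overlap, since replicate 1 was the highest library of Mapt in all 6 groups, and the difference showed within each replicate number, where the injured library was the lower in 3 of 3 at both times. The log2 fold change was -0.19 (SE 0.05) at both times, with an adjusted p of 0.0145 at 16 HPI and 0.0214 at 24 HPI, and at 8 HPI it was 0.03 (SE 0.05). At 16 HPI the call ended when control replicate 1 (-0.15) or replicate 1 (-0.17) or 3 (-0.18) of 16 HPI was left out, and with the compared groups alone (-0.19, adjusted p = 0.0983). At 24 HPI it ended when replicate 1 (-0.15) or 3 (-0.20) of the control or replicate 1 (-0.14) or 2 (-0.18) of 24 HPI was left out, and with upper-quartile scaling (-0.16) or the GC content and length correction (-0.15).

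Map2, the dendritic microtubule-associated protein (ENSMUSG00000015222.17, chromosome 1, 66175273 to 66442583), had a different course. It was 390.6, 381.2 and 371.1 CPM in control, 342.6, 329.0 and 360.3 CPM at 1 HPI and 361.7, 324.3 and 328.3 CPM at 3 HPI. The libraries at 1 and 3 HPI were all below control, with log2 fold changes of -0.15 (SE 0.06, adjusted p = 0.32) and -0.17 (SE 0.06, adjusted p = 0.192). It was 393.9, 355.1 and 321.3 CPM at 8 HPI, 451.7, 401.8 and 387.1 CPM at 16 HPI and 431.0, 427.9 and 369.9 CPM at 24 HPI. Against control the log2 fold change was 0.12 (SE 0.06, adjusted p = 0.184) at 16 HPI and 0.10 (SE 0.06, adjusted p = 0.271) at 24 HPI, with 95% intervals of -0.01 to 0.24 and -0.02 to 0.23. With the correction for GC content and length these became 0.20 (adjusted p = 0.00495) and 0.25 (adjusted p = 0.00183), past the threshold. An antisense gene, Gm10558, overlaps 124 exonic bases of Map2, 0.754% of its exon length, and the counting is not stated to use strand.

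Dcx (ENSMUSG00000031285.14, chromosome X, 143855842 to 143933311) was 390.3, 338.8 and 313.1 CPM in control and 364.4, 292.3 and 269.1 CPM at 16 HPI. The ranges overlap, with the 16 HPI library the lower in each of the 3 replicate numbers, and the log2 fold change was -0.18 (SE 0.06, adjusted p = 0.0356). At 24 HPI it was -0.09 (SE 0.06, adjusted p = 0.322). The 16 HPI call was the least stable of the 8: it was lost without any 1 of the 3 control libraries (-0.20, -0.18 and -0.15) or of the 3 libraries at 16 HPI (-0.20, -0.15 and -0.18), with upper-quartile scaling (-0.15), with a filter of 10 counts over all libraries (-0.17), and with the GC content and length correction (-0.12).

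Dpysl2, or CRMP2 (ENSMUSG00000022048.8, chromosome 14, 66802864 to 66868688), was 2966, 2835 and 2739 CPM in control and varied least of the members, with a highest library 1.219 times the lowest. Its highest mean was at 8 HPI, where it was 3185, 3143 and 2959 CPM (log2 fold change 0.12, SE 0.05, adjusted p = 0.125), and at 24 HPI it was 2672, 2820 and 2722 CPM. Dpysl3, or CRMP4 (ENSMUSG00000024501.19, chromosome 18, 43320984 to 43438286), was 3482, 2900 and 3030 CPM in control, 3746, 2980 and 3099 CPM at 8 HPI and 3361, 2621 and 2804 CPM at 16 HPI. Its difference from control at 16 HPI was -0.10 (SE 0.04, adjusted p = 0.0796), and it passed there by DESeq2 (adjusted p = 0.0186) and with the GC content and length correction (-0.11, adjusted p = 0.0345). The 95% intervals at 24 HPI were -0.15 to 0.04 for Dpysl2 and -0.15 to 0.02 for Dpysl3.

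Set against all genes, the share of members called was as follows. At 1 HPI 0 of 10 members passed, and 0.276% of all genes tested did. By DESeq2 1 member passed, with 0.138% of all genes higher and 0.85% lower. At an unadjusted p under 0.05 there were 2 members and 1769 of the 13771 genes. At 3 HPI 0 of 10 passed, with 0.189% of all genes. By DESeq2 2 passed, with 0.203% of all genes higher and 0.879% lower. The 4 members under an unadjusted p of 0.05 at 3 HPI are not comparable with these adjusted shares. At 8 HPI 2 of 10 passed, 1 higher and 1 lower, with 7.68% of all genes, 3.78% higher and 3.90% lower. At 16 HPI 4 of 10 passed, 1 higher and 3 lower, with 22.2% of all genes, 10.7% higher and 11.5% lower. At 24 HPI 2 of 10 passed, both lower, with 15.0% of all genes, 5.99% higher and 9.03% lower. In the test for any difference among the 6 groups, 6 of 10 passed (Stmn4, Mapt, Map1b, Map2, Dpysl2 and Dpysl3), with 30.0% of all genes. The members were not tested as a group. The median log2 fold change of the members was -0.02 at 16 HPI and -0.04 at 24 HPI, and that of all genes was 0.00 at both. The 5 comparisons share the control libraries and are not independent of each other.

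Because the comparisons with control share libraries, the change between neighbouring times was tested directly. From 1 to 3 HPI, 0 of 10 members passed edgeR's test (1 at an unadjusted p under 0.05, 0 by DESeq2), as did 0% of all genes. From 3 to 8 HPI 1 passed, Stmn4, with 2.30% of all genes, 1.74% higher and 0.559% lower. From 8 to 16 HPI 5 of 10 passed, 1 higher and 4 lower, with 15.2% of all genes, 7.30% higher and 7.86% lower. Mapt had a log2 fold change of -0.22 (SE 0.05, adjusted p = 0.00978), Map1b of -0.18 (SE 0.06, adjusted p = 0.048), Dpysl2 of -0.17 (SE 0.05, adjusted p = 0.0142) and Dpysl3 of -0.16 (SE 0.04, adjusted p = 0.01), each lower in 3 of 3 replicate numbers. Map2 had 0.21 (SE 0.06, adjusted p = 0.0182), higher in 3 of 3. The libraries of Map1b and Dpysl2 did not overlap between 8 and 16 HPI. From 16 to 24 HPI 0 of 10 passed (1 unadjusted, 0 by DESeq2), with 9.82% of all genes. Stmn4 then had -0.23 (SE 0.10, adjusted p = 0.166).

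Map1b and Map2, the structural proteins that moved in opposite directions from 8 to 16 HPI, are shown with the sequence just upstream of a RefSeq start site on GRCm38.p6. Such a sequence was given for 4 of the 10 members (Stmn3, Map1b, Map2 and Dcx). The bases outside annotated transcripts are printed 5′ to 3′ on the strand of the gene, with TATAAA and GGGCGG, read on either strand, in capitals.
Map1b, chr13:99516603-99516852, minus strand: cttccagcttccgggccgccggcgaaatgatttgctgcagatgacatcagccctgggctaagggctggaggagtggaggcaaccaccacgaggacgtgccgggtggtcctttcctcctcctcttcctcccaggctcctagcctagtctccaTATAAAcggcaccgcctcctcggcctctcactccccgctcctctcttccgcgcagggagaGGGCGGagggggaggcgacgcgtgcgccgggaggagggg
Map2, chr1:66175079-66175272, plus strand: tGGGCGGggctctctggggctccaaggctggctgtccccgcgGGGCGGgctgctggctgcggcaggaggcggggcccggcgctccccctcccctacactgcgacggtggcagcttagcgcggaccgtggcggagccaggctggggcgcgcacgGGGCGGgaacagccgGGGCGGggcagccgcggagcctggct
The Map1b stretch of 250 bases was 66.4% GC and held 1 TATAAA and 1 GGGCGG, and the Map2 stretch of 194 bases was 79.4% GC and held 0 TATAAA and 4 GGGCGG. Among 32851 promoter windows of 300 bases, 13.6% held TATAAA and 35.7% held GGGCGG. The AP-1 motif TGANTCA, held by 7.81% of windows, and the CRE motif TGACGTCA, held by 1.79%, were in neither stretch. These matches describe letters in the window only.

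Other genes of the microtubule and growth cone machinery were followed in 7 lists of 86 genes, of which 84 were tested. The lists were chosen with earlier results of these data known. Their shares beside those of all genes are therefore a description. The lists were not tested as a group and are not separate support for the members. At 16 HPI 23 of the 84 were lower (27.4%, against 11.5% of all genes tested) and 6 were higher (7.14%, against 10.7%). At 24 HPI 23 were lower (27.4%, against 9.03%) and 3 higher (3.57%, against 5.99%). Upper-quartile scaling gave 16 lower (19%, against 9.77%) and 6 higher (7.14%, against 12.6%) at 16 HPI. At 24 HPI it gave 18 lower (21.4%, against 6.93%) and 4 higher (4.76%, against 8.67%). It turned the calls over all genes at 24 HPI from 60.1% lower to 44.4% lower and at 16 HPI from 51.7% to 43.7%. With no replicate block 5 were lower (5.95%, against 2.18% of all genes) and 0 higher (against 2.95%) at 16 HPI. At 24 HPI that setting gave 1 lower (1.19%, against 0.675%) and 1 higher (1.19%, against 0.436%). Without control replicate 2 the numbers lower were 13 at 16 HPI (15.5%, against 8.51%) and 14 at 24 HPI (16.7%, against 5.32%). Without control replicate 3 they were 15 at 16 HPI (17.9%, against 9.17%) and 15 at 24 HPI (17.9%, against 6.45%). At 8 HPI 5 were lower (5.95%, against 3.90% of all genes tested) and 0 higher (against 3.78%). With the GC content and length correction 1 was lower (1.19%, against 3.28%) and 1 higher (1.19%, against 3.68%).

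Map1a, the paralogue of Map1b (control 1446 ± 141 CPM, SD, n = 3), was already lower at 1 HPI (-0.34 on the log2 scale, SE 0.07, adjusted p = 0.0351), and its difference from control was -0.41 at 16 HPI (adjusted p = 0.000137) and -0.50 at 24 HPI (SE 0.07, adjusted p = 4.33e-05), and it passed at 8 HPI as well. Of the 15 other microtubule-associated proteins, 7 were lower and 2 higher (Arhgef2 and Map7d1) at 16 HPI, and 7 were lower and 0 higher at 24 HPI. Map7, which promotes kinesin movement, was among those lower at 16 HPI (-0.33, SE 0.06, adjusted p = 0.000162 by edgeR). It did not pass at 24 HPI (-0.10, adjusted p = 0.229 by edgeR) and rose from 16 to 24 HPI (0.23, adjusted p = 0.00975 by edgeR). Of the 15 microtubule end proteins, 5 were lower at 16 HPI and 8 at 24 HPI. They included Apc (-0.37 and -0.40, SE 0.07 each), which links plus ends to the growth cone, and Ckap5, a microtubule polymerase (-0.28 and -0.20, SE 0.05 each). In the doublecortin and CRMP family, 3 of 5 were lower at 16 HPI and 2 of 5 at 24 HPI, with Dclk1 at -0.15 (SE 0.05) at 16 HPI and Crmp1 at -0.25 (SE 0.06) at 24 HPI.

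A list of 16 genes held kinases known to phosphorylate these proteins and activators of such kinases. Of these genes, 4 were lower and 1 higher at 16 HPI, and 3 were lower at 24 HPI. Camk2b fell at both times (-0.28 and -0.27, SE 0.04 each), and so did Cdk5r2, an activator of Cdk5 (-0.35 and -0.23, SE 0.07 each). Of 11 tubulin modifying enzymes, 2 were lower and 1 higher at 16 HPI, with Ttl, the tubulin tyrosine ligase, at -0.18 (SE 0.05) and Agtpbp1, a deglutamylase, at -0.18 (SE 0.05). Of 14 other growth cone genes, 2 were lower and 1 higher at 16 HPI, and 2 were lower and 2 higher at 24 HPI, where Enah, an actin regulator, was at -0.23 (SE 0.04) and Marcksl1 at 0.24 (SE 0.04). The 8 severing and depolymerizing genes tested gave 1 call, Fignl1, with a log2 fold change of 1.01 (SE 0.30, adjusted p = 0.0177) at 16 HPI. Fignl1 was barely detected, at 0.726 ± 0.119 CPM in control and 1.51 ± 0.312 CPM at 16 HPI (SD, n = 3), and its call did not hold by DESeq2, nor when replicate 1 or 2 of the control or replicate 1 of 16 HPI was left out. Over all alternatives its log2 fold change lay between 0.91 and 1.14.

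Among these named genes, the calls of Dclk1, of Ttl at both times, of Ckap5 and Cdk5r2 at 24 HPI, and of Map1a at 1 and 8 HPI did not hold without control replicate 2 or without control replicate 3, where their log2 fold changes lay between -0.12 and -0.36. With the GC content and length correction the 1 and 8 HPI differences of Map1a became -0.24 and -0.17 and no longer passed. The same correction moved Enah to -0.07 at 16 and 24 HPI, Agtpbp1 to -0.05 and Dclk1 to -0.07, all short of the threshold. With no replicate block the calls of Map1a at all 4 times, of Ttl and Enah at both times, of Dclk1, Agtpbp1 and Fignl1 at 16 HPI, and of Crmp1, Apc, Ckap5 and Cdk5r2 at 24 HPI were lost.

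**Figure D4:**
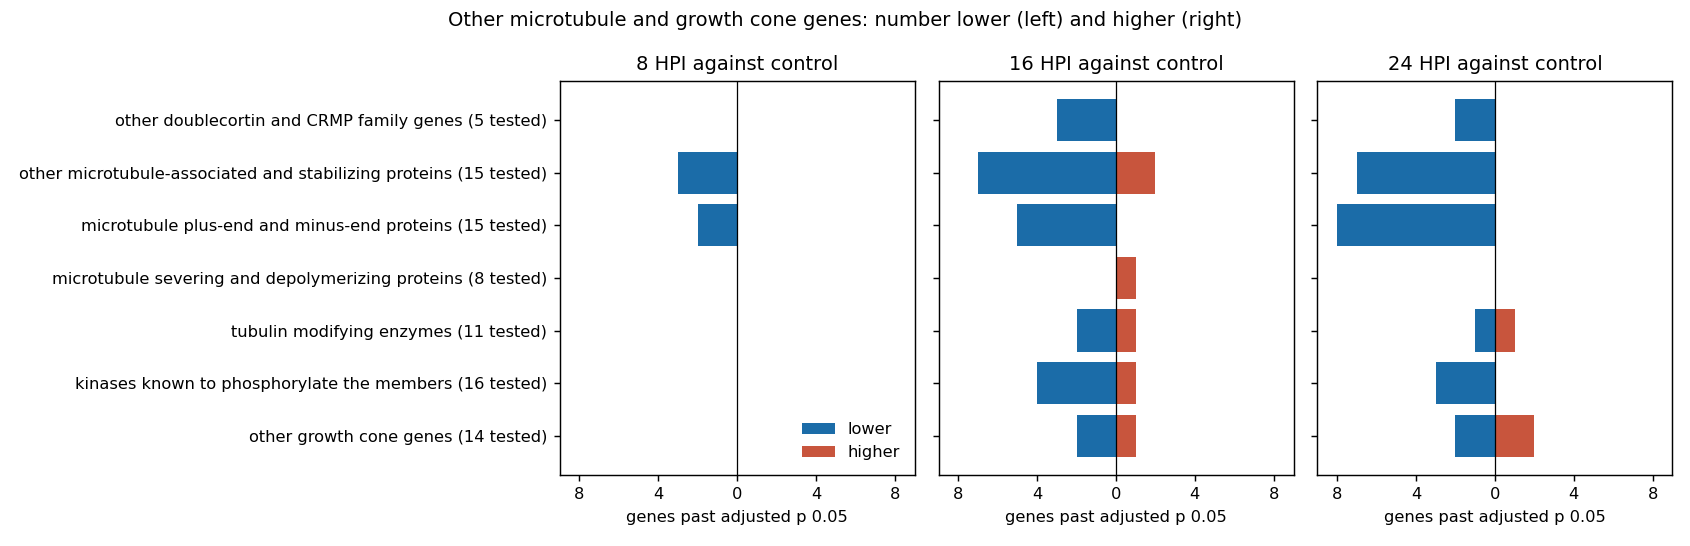
Number of genes in each of the 7 lists that passed an adjusted p of 0.05 against control at 8, 16 and 24 HPI, with genes lower than control to the left of 0 and genes higher to the right. The microtubule-associated and the microtubule end proteins show the most genes lower, 7 and 5 at 16 HPI and 7 and 8 at 24 HPI.

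The genes whose course was most like that of a member were taken by Pearson's r of log2 CPM over the 18 libraries, after the replicate offsets were removed, as a description. The libraries are common to all genes, and so is their depth. Map1b was closest to Ank2, an axonal ankyrin (r = 0.978), Astn1 (0.964) and the mechanosensitive channel gene Piezo2 (0.962), and 56 genes were over 0.9. Mapt was closest to Angpt1 (0.943), Asic1 (0.941) and Camkv (0.924), and Map2 to Atp11b (0.921), Rgs12 (0.905) and Sbf1 (0.899). Stmn4 was closest to Fam53c (0.914), Fiz1 (0.890) and Fam167a (0.888). Dpysl2 was closest to Fdps (0.924), Zdhhc22 (0.903) and Acat2 (0.885), and Dpysl3 to Rims3 (0.939), Usp1 (0.901) and Tuba1c (0.899). Dcx was closest to Gnal (0.878), Rgs7bp (0.856) and Nkain3 (0.847). The 3 stathmins that did not pass had no gene over 0.9: Stmn3 was closest to Psmd13 (0.897), Zmat2 (0.861) and Sult4a1 (0.852), Stmn2 to Def8 (0.893), Tceal5 (0.885) and Kansl2 (0.884), and Stmn1 to Iqce (0.766), Tor2a (0.740) and Dkkl1 (0.737). Between members, Mapt, Dpysl2 and Dpysl3 ran together (0.826 for Mapt with Dpysl3, 0.819 for Mapt with Dpysl2, 0.766 for Dpysl2 with Dpysl3), and Map2 ran opposite to them (-0.705 with Mapt, -0.771 with Dpysl2, -0.623 with Dpysl3).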

How the data were processed

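RNA from 18 eDRG spot cultures (6 groups of 3 libraries) was sequenced after rRNA depletion. The authors deposited raw counts per gene, without normalization. Their methods name cutadapt, STAR on mm10 and featureCounts, while the submitters' processing notes name HTSeq, whose 5 closing entries each table holds. These took 25.2% to 33.2% of counts and were left out.

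Counts were analysed with edgeR 4.0.16 in R 4.3.3. The 13771 of 47643 genes that exceeded 1 CPM in 3 or more libraries were tested, normalised by TMM, in 1 quasi-likelihood model with time point and replicate number as terms, two-sided, with Benjamini-Hochberg adjustment over all genes tested. The study's methods name a batch correction without saying what the batches were. Same-numbered libraries deviated together from their group means (mean r 0.619, 0.484 to 0.765, over 45 pairs), so the numbers were taken to pair the samples. The mean r of the other pairs (-0.308) is not separate support, since deviations within a group cancel out. CPM is TMM-normalised. RPKM divides it by total exon length from GENCODE vM21, which matched 47224 identifiers. Near copies are transcripts with 90% identity over 100 bases by blastn 2.17.0. Promoter sequences came from RefSeq.

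The members, gene lists and tests were chosen with earlier results of these data known. Named were all members, for each list the genes past 2-fold or otherwise the 2 with the smallest adjusted p, and for each member the 3 genes of highest r. The method was run on simulated counts, with imposed changes larger than any member's estimate against control and with the filter of 10 counts. That run therefore does not show how well changes as small as those of the members are found. Alternatives were DESeq2 1.42.0 (size factors, Wald test), upper-quartile factors, filters of 10 counts in all or 1 CPM in all 18 libraries, no replicate block, the compared groups alone, residual rRNA and mitochondrial genes left out (398), a GC content and length correction, and each library left out. Counting intervals were not needed at these depths, and PCR duplicates could not be told apart.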

Additional observations from a re-analysis of the deposited data

Results flagged for a closer look

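The course of 6 members changed between neighbouring time points, so that their difference from control at 1 time was not that at the next. Stmn4 rose from 3 to 8 HPI with a log2 fold change of 0.39, higher in 3 of 3 replicate numbers. This call had an adjusted p of 0.0498 by edgeR and was the most easily lost: it failed without any 1 library of the control or 1 HPI groups, and without 3 HPI replicate 1 (0.36) or 2 (0.32), 8 HPI replicate 1 (0.42) or 2 (0.28), 16 HPI replicate 3 or 24 HPI replicate 3 (0.39 each, as were those of the control and 1 HPI libraries).

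From 8 to 16 HPI the log2 fold change was -0.22 for Mapt, -0.18 for Map1b, -0.17 for Dpysl2 and -0.16 for Dpysl3, and 0.21 for Map2. The Mapt and Dpysl3 changes were lost without 8 HPI replicate 1 (-0.19 and -0.14). The Dpysl2 change was lost without 8 HPI replicate 1 (-0.16), 16 HPI replicate 1 (-0.14) or 16 HPI replicate 3 (-0.16), and the Map2 change without 8 HPI replicate 3 (0.17) or 16 HPI replicate 1 (0.19). The Map1b change, with an adjusted p of 0.048, was lost without any 1 library at 8 HPI (-0.21, -0.16 and -0.18), 16 HPI replicate 2 (-0.17) or 3 (-0.14), and without control replicate 2 or 3, 1 HPI replicate 2, 3 HPI replicate 1 or 24 HPI replicate 2 (between -0.18 and -0.19).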

How the results depend on the processing

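Over 27 alternatives, 2334 of 2430 member values kept their side of the threshold, 78 lost a call, 18 gained one and 0 called values changed sign. Most of these values were not called in the main fit, so the number kept is mostly of values that stayed uncalled. It does not give the stability of the calls themselves. The replicate block mattered most. Without it, members called were 0 at 8 HPI, 1 at 16 HPI and 1 at 24 HPI, 0 from 3 to 8 HPI, 0 from 8 to 16 HPI and 1 among any of the 6 groups. Map1b was the member kept at 16 and 24 HPI, while Stmn4 at 16 HPI had an adjusted p of 0.0541 by edgeR. Calls over all genes fell as well. Without the block, 0.356% were higher and 0.0871% lower at 8 HPI, 2.95% and 2.18% at 16 HPI, and 0.436% and 0.675% at 24 HPI. The shares were 0.269% and 0.0508% from 3 to 8 HPI, and 1.01% and 0.494% from 8 to 16 HPI. DESeq2's test called 1 at 1 HPI, with 0.138% of all genes higher and 0.85% lower. It called 2 at 3 HPI, with 0.203% of all genes higher and 0.879% lower. The compared groups alone gave 2 at 1 HPI, with 0.986% of all genes higher and 2.89% lower. They gave 3 from 8 to 16 HPI, with 7.81% of all genes higher and 7.55% lower. Upper-quartile factors gave 0 from 3 to 8 HPI, with 1.45% of all genes higher and 0.842% lower. They gave 2 from 8 to 16 HPI, with 9.95% of all genes higher and 5.21% lower. The filter of 1 CPM in all 18 libraries gave 0 from 3 to 8 HPI, with 1.93% of all genes higher and 0.666% lower. With the longest transcript as length, 5 of 10 places in the order of levels were kept. Leaving out 1 library at a time gave 0 to 0 members at 1 and 3 HPI, 0 to 2 at 8 HPI, 2 to 4 at 16 HPI, 1 to 3 at 24 HPI, 0 to 0 from 1 to 3 HPI, 0 to 1 from 3 to 8 HPI, 1 to 5 from 8 to 16 HPI, 0 to 1 from 16 to 24 HPI and 4 to 6 among any group, with 10 to 10 places kept. Shares over all genes also moved with the library left out. At 8 HPI they were 1.97% higher and 1.29% lower without 8 HPI replicate 3, and 4.05% and 4.24% without 16 HPI replicate 2. The cause of the lost calls was not tested. Gene counts do not separate the transcripts of a gene, so a change of isoform would not show.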

Other observations

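For several members the offset between replicate numbers was larger than the course after injury. The means of the replicate numbers over the 6 groups spanned 0.40 on the log2 scale for Stmn1 and 0.41 for Dcx, whereas the means of the 6 groups spanned 0.14 and 0.18. Stmn1 was highest in replicate 2 in 6 of 6 groups, and Dcx (364.4 to 400.3 CPM against 263.5 to 354.4 CPM), Dpysl3 (3306 to 3746 CPM against 2621 to 3099 CPM) and Mapt were highest in replicate 1 in 6 of 6 groups. Map1b showed the reverse, with 0.03 between replicate numbers and 0.52 between groups, and Stmn4 spanned 0.25 between replicate numbers and 0.66 between groups.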
